A study of Mus musculus with 1483 samples.

Results

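The 9 serotonin receptor genes Htr1a, Htr1b, Htr1f, Htr2a, Htr2c, Htr3a, Htr3b, Htr4 and Htr7 were taken by name from the 45768 gene columns of a table of 1483 single neurons. The 5 other serotonin receptor genes of the table, Htr1d, Htr2b, Htr5a, Htr5b and Htr6, were read beside them. The cells came from the tissue labelled VISp of 33 mice. Each mouse had received an adeno-associated virus (AAV) in which 1 of 11 enhancers drives SYFP2, a yellow fluorescent protein, and the fluorescent cells were sorted singly and sequenced from polyadenylated RNA with SMARTer v4 chemistry. The study's title names subclass-selective expression from such enhancers as its subject.

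The labels give every mouse as C57Bl/6J, with the virus and the sort common to all groups, and name no age and no group without virus. The enhancers eHGT_017h, eHGT_019h, eHGT_023h, eHGT_058h, eHGT_078h, eHGT_079h, eHGT_128h, eHGT_140h and hDLXI56i were carried by 3 mice each, eHGT_064h by 4 and eHGT_082h by 2. Because the enhancer decides which cells are sorted, the mean over the cells of a mouse holds both the kinds of cell taken and the level in each kind. A mouse gave 32 to 53 cells, with 833 to 1018507 reads in a cell and 586338 in the median cell. Levels are in counts per 1000000 reads (CPM), and in the median cell 10 CPM is several reads. A total of 16 cells had fewer than 100000 reads.

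Serotonin reaches the cortex through axons of the raphe nuclei, and the cells it acts on are set apart by the receptors they make. The Htr1 receptors couple to inhibitory G proteins and lower cyclic AMP, the Htr2 receptors couple to Gq and phospholipase C, Htr4 and Htr7 raise cyclic AMP, and the Htr3 subunits form a cation channel that opens on binding serotonin. In cortex Htr3a is known as a gene of interneurons born in the caudal ganglionic eminence, and Htr2a as the receptor through which psychedelic drugs act.

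Cells were classed by marker genes that are not serotonin receptors. A GABAergic cell had Gad1 or Gad2 at 10 CPM or more and Slc17a7 below it, and a glutamatergic cell the reverse. GABAergic cells that met exactly 1 of 4 criteria formed the classes Pvalb (602 cells), Sst (212), Vip (50) and Lamp5 (153). The criteria were Pvalb at 100 CPM, Sst at 1000, Vip at 1000, and Lamp5 at 100 with Adarb2 at 10. Glutamatergic cells were split by Rorb and Fezf2 at 10 CPM into Rorb (46 cells), Fezf2 (57), Rorb and Fezf2 (65) and neither (110). Some genes outside the rule were read as a check. Lhx6 was at 10 CPM in 98.1% of Sst and 99.5% of Pvalb cells and in none of the Vip cells. Prox1 was in 96.0% of Vip cells, Cplx3 in every Lamp5 cell and Crym in 94.7% of Fezf2 cells. Calb2, also a check gene of Vip cells, was in 25 of the 50. The other check genes are not given here. Levels below are means of CPM over the cells of a mouse, then means ± SD over the mice that gave at least 5 cells of a class (21 Pvalb, 12 Sst, 4 Vip, 7 Lamp5, 5 Rorb, 3 Fezf2, 5 Rorb and Fezf2, 7 neither). Microglial and vascular markers were low in the median mouse of every class. The sum of the astrocyte genes Aqp4, Gja1, Slc1a3 and Aldh1l1 in the median mouse ranged from 1.41 CPM in Pvalb to 78.9 CPM in Rorb and Fezf2 cells. Of the oligodendrocyte genes, Mbp was at 10 CPM in 59.3%, Mobp in 11.1% and Mog in 1.89% of all cells.

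Of the 1483 cells, 746 held Htr1f at 10 CPM or more, 695 Htr2a, 312 Htr7, 266 Htr1a, 133 Htr2c, 123 Htr4, 87 Htr3a, 22 Htr1b and 5 Htr3b. The classes were tested with limma on log2(mean CPM + 1) with the mouse as a block, each class against the unweighted mean of the other 7. A gene was called at a Benjamini-Hochberg adjusted p below 0.05 over 22079 genes and a log2 difference of at least 1. The differences are on that log2 scale, which understates changes of low genes. Of the 72 pairs of receptor and class, 23 were called, 8 higher and 15 lower, while 11.3% of all pairs of gene and class were called. With a pseudocount of 0.1 the split was 15 higher and 17 lower, and with voom on recovered reads 17 and 14. By class, the calls among the 9 receptors against the percentage of all genes called were 2 in Pvalb (12.0%), 4 in Sst (9.07%), 5 in Vip (13.9%), 2 in Lamp5 (11.2%), 1 in Rorb (13.2%), 2 in Fezf2 (7.82%), 3 in Rorb and Fezf2 (13.3%) and 4 in neither (9.9%). The median log2 difference of all genes was −0.14 in the Vip class and within 0.06 of 0 in the others, and that of the 9 receptors was 0.31 in Vip, 0.54 in Lamp5 and −0.90 in neither.

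**Figure D1:**
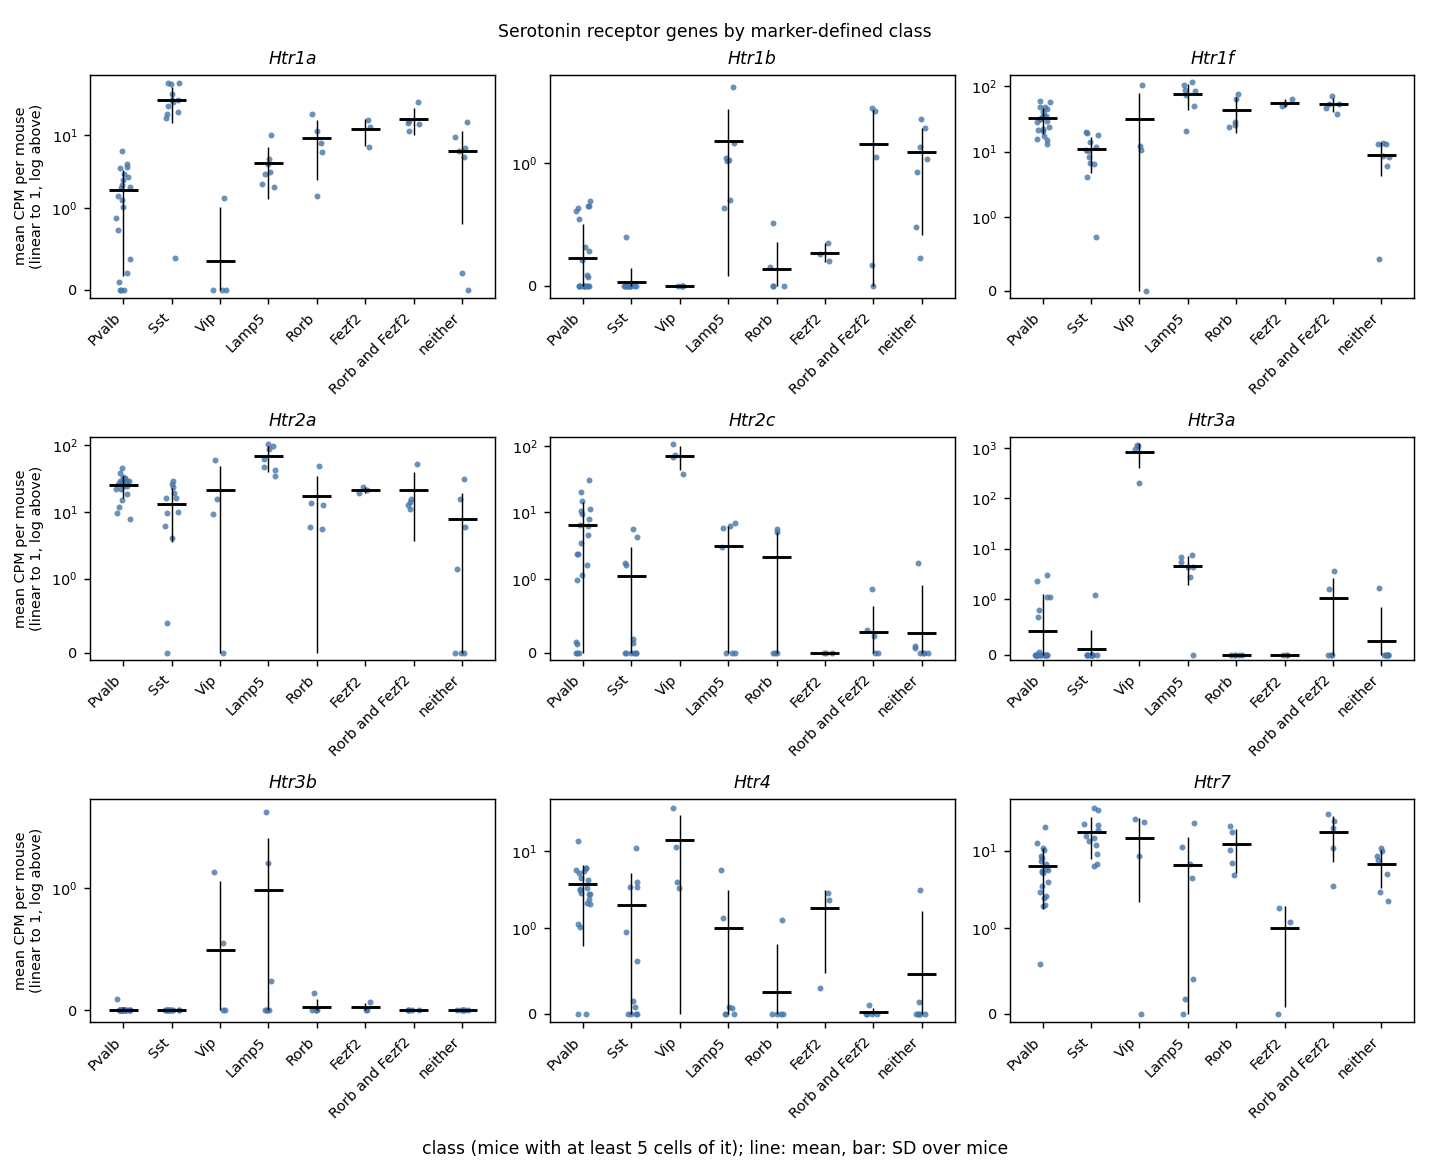
Mean CPM of the 9 serotonin receptor genes in each mouse (points) by class; the y axis is linear up to 1 CPM and logarithmic above, lines are means over mice and bars SD, ending at 0 where the SD exceeds the mean. All 4 Vip mice lie above every mouse of the other classes in Htr3a and, by less, in Htr2c, where the lowest Vip mouse had 37.2 CPM and the highest Pvalb mouse 30.2 CPM. By mean over mice, Htr1a is highest in Sst and Htr1f and Htr2a in Lamp5 cells.

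Placed in order of mean level, neighbouring classes seldom stood apart. In 6 of the 63 pairs of neighbours the means differed by more than the larger of the 2 SDs, and in 2 the mice of the classes did not overlap: Vip above Lamp5 for Htr3a, and Vip above Pvalb for Htr2c. The other 4 were Lamp5 above Rorb and Fezf2 for Htr3a, Lamp5 above Pvalb for Htr2a, Pvalb above Fezf2 for Htr7, and neither above Fezf2 for Htr1b.

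Among the receptors that inhibit adenylyl cyclase, Htr1a was a gene of Sst cells and of a part of the glutamatergic cells. It lies on GRCm38 chromosome 13 (chr13:105443639-105448122, plus strand) as a single exon of 4484 bases. Its level over the 12 Sst mice ran from 0.394 to 50.9 CPM (median 28.6), and the mean was 29.6 ± 15.3 CPM (SD, n = 12) against 7.10 CPM for the mean of the other classes. Only 1 Sst mouse, of eHGT_023h with 5 Sst cells, lay below 16 CPM, and the Pvalb mice ran from 0 to 5.95 CPM, below the other 11. The log2 difference was 2.21 (SE 0.33, limma adjusted p = 1.63e-07).

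The Rorb and Fezf2 class followed, with 11.2, 13.8, 14.5, 15.5 and 27.7 CPM in its 5 mice, a mean of 16.5 ± 6.44 CPM and a log2 difference of 1.6 (SE 0.47, limma adjusted p = 0.00622). Fezf2 mice had 6.72, 12.6 and 16.1 CPM and Rorb mice 1.47, 5.87, 7.76, 11.2 and 19.3 CPM, and neither class was called. Htr1a fell short in Pvalb cells, at 1.77 ± 1.59 CPM (SD, n = 21) and a log2 difference of −1.62 (SE 0.28, limma adjusted p = 1.52e-06). In the Vip class it was 0 in 3 mice and 1.39 CPM in the other, with a log2 difference of −2.71 (SE 0.53, limma adjusted p = 4.75e-05). Cell by cell, 44.3% of Sst, 47.7% of Rorb and Fezf2, 6.15% of Pvalb and 2.0% of Vip cells held it at 10 CPM, so Sst cells had the higher mean at a like share.

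Htr1f, another inhibitory receptor and the target of drugs against migraine, was spread more widely. It spans 181126 bases of chromosome 16 (chr16:64924729-65105854, minus strand) with 2579 exonic bases. Its Lamp5 mice ran from 20.6 to 115 CPM with a median of 82.7, the Pvalb mice from 12.9 to 59.4 (median 31.6), and the Sst mice from 0.738 to 20.2 with a median of 10.3. The 3 Fezf2 mice had 48.7, 52.5 and 63.5 CPM and the 5 Rorb and Fezf2 mice 38.0, 47, 52.5, 53.6 and 71.2 CPM. Lamp5 mice and Sst mice thus did not overlap, while Lamp5 mice overlapped with both of these glutamatergic classes. The Lamp5 class was higher by a log2 of 1.57 (SE 0.40, limma adjusted p = 0.0015) at 75.9 ± 32.3 CPM (SD, n = 7), and Fezf2 cells held Htr1f most often, at 10 CPM in 80.7%.

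Htr1f was lower in the cells with neither Rorb nor Fezf2, at 9.05 ± 4.80 CPM (SD, n = 7) and a log2 difference of −1.91 (SE 0.39, limma adjusted p = 8.43e-05), and in Sst cells, at a log2 difference of −1.56 (SE 0.32, limma adjusted p = 7.71e-05). The Vip mice had 0, 10.4, 12.4 and 102 CPM, so 1 mouse of eHGT_019h lay far above the other 3. The Vip difference of −1.38 (SE 0.51, limma adjusted p = 0.038) ended as a call without either eHGT_017h mouse or the hDLXI56i mouse, at −0.21, −1.40 and −1.45. The call in the neither class ended among the mice whose library names have the letter G after the first hyphen, at −1.07. The Lamp5 call ended with classes of at least 3 cells a mouse, at 1.11.

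Htr1b, a presynaptic autoreceptor and heteroreceptor in many neurons, was near the limit of detection. It lies on chromosome 9 (chr9:81628291-81633828, minus strand) and shares 852 exonic bases with D430036J16Rik on the opposite strand. The counting of strands is not given in the sources used here, so reads of the pair cannot be told apart. It reached 10 CPM in 7 of 153 Lamp5 cells, 5 of 602 Pvalb cells, 4 of 65 Rorb and Fezf2 cells and 4 of 110 neither cells. None of the 212 Sst, 50 Vip or 46 Rorb cells did, which allows shares of up to 1.42%, 6.0% and 6.52% by counting error alone. The highest class means were 1.58 ± 1.5 CPM in Lamp5 (SD, n = 7), 1.5 ± 1.52 in Rorb and Fezf2 (n = 5) and 1.25 ± 0.84 in neither (n = 7), and no class was called.

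Among the Gq-coupled receptors, Htr2a had the same highest and lowest classes as Htr1f. It spans 68655 bases of chromosome 14 (chr14:74640840-74709494, plus strand) with 5606 exonic bases. The Lamp5 mice ran from 34.2 to 102 CPM (median 61.9), the Pvalb mice from 7.93 to 44.6 (median 27.8), and the neither mice from 0 to 30.9 with a median of 1.39. All 7 Lamp5 mice lay above all neither mice. The 3 mice of the neither class that came from eHGT_058h were at 0, and the eHGT_023h mouse at the top of that class was the only one above 16 CPM.

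Lamp5 cells had Htr2a at 67.8 ± 28.0 CPM (SD, n = 7) against 18.2 CPM for the mean of the other classes, a log2 difference of 2.39 (SE 0.49, limma adjusted p = 9.09e-05). The neither class was at 7.71 ± 11.7 CPM (n = 7) with a log2 difference of −2.35 (SE 0.48, limma adjusted p = 9.31e-05). Pvalb cells, at 25.3 ± 9.16 CPM (n = 21), had a log2 difference of 0.80 and were not called. Htr2a was at 10 CPM in 70.6% of Lamp5, 60.6% of Pvalb, 49.1% of Fezf2, 30.7% of Sst and 16.0% of Vip cells.

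The upstream sequences of Htr1f and Htr2a are shown because the 2 genes had the same highest and lowest class, Lamp5 and neither. In other classes they differed, as Htr1f was called lower in Sst and Vip cells and Htr2a was not. Upstream sequences of Htr1a and Htr2c, which lay on opposite sides of the GABAergic split described further on, are shown beside them. They are from RefSeq (GRCm38.p6), are given 5′ to 3′ on the strand of the gene, and hold only bases outside the annotated exons of the gene. Capitals mark a GC box, GGGCGG on either strand.
Htr1f (chr16:65105855-65106034, minus strand): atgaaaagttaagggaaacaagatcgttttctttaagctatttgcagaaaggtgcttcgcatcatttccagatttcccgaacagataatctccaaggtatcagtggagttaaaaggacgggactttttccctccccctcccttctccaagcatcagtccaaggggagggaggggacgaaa
Htr2a (chr14:74640624-74640839, plus strand): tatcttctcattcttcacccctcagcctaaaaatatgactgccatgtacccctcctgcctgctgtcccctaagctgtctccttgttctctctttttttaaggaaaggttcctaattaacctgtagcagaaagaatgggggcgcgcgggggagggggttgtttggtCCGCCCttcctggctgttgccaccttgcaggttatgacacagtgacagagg
Htr1a (chr13:105443443-105443638, plus strand): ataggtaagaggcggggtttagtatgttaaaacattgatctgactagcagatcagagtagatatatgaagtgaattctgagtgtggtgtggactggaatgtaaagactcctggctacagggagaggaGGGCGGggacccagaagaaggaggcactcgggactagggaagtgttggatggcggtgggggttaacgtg
Htr2c (chrX:146962263-146962463, plus strand): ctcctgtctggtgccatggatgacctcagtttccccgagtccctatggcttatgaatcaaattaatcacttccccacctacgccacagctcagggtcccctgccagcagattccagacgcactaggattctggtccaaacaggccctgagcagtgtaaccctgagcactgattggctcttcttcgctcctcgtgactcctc

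RefSeq held upstream windows for 7 of the 9 genes (not Htr3a and Htr4). In the 250 bases before each RefSeq start, searched on both strands, Htr1a and Htr2a held a GC box, as did 32.7% of 32851 promoter windows of the same length. The E-box CANNTG, found in 66.2% of all windows, occurred in Htr3b and in no other of the 7. A TATA box TATAAA (12.4% of all windows) was in none of them, and the cyclic AMP response core TGACG (17.8%) was in Htr7 alone. Htr7 also had 41 CpG dinucleotides in its window, above the upper quartile of 16 over all windows, while the other 6 had 1 to 7. A match is a run of letters and does not show binding.

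Htr2c, the other Gq-coupled receptor, had its highest level in the Vip class. It spans 234765 bases of the X chromosome (chrX:146962513-147197277, plus strand) and carries small non-coding RNA genes on the same strand, none of which shares exonic bases with it. Its 4 Vip mice had 37.2, 68.2, 72.3 and 105 CPM. The highest of the 21 Pvalb mice had 30.2 CPM, with a median of 3.43, the Sst mice ran from 0 to 5.54, and the 3 Fezf2 mice were at 0, so no mouse of another class reached the lowest Vip mouse. The Vip mean of 70.8 ± 27.9 CPM (SD, n = 4) stood against 1.90 CPM for the mean of the others, a log2 difference of 5.15 (SE 0.61, limma adjusted p = 4.29e-10). Leaving out any 1 mouse left this difference between 5.02 and 5.48.

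Of the Vip cells 60.0% held Htr2c at 10 CPM, against 10.6% of Pvalb and 5.23% of Lamp5 cells. The share was 0 of 57 in Fezf2 cells, which allows up to 5.26%. By number, Pvalb cells were the larger part, with 64 of all 133 cells with Htr2c against 30 Vip cells. A further 15 had both Slc17a7 and Gad1 or Gad2. Htr2c was lower in the neither class, at 0.267 ± 0.644 CPM (SD, n = 7) and a log2 difference of −1.42 (SE 0.47, limma adjusted p = 0.0195). That call ended without the Vip class among the others, at −0.69, and without 1 or the other of 2 eHGT_058h mice, at −1.31 and −1.3. It also ended by voom on recovered reads, at −2.45 (adjusted p = 0.0656), and with at least 10 cells a mouse, at −0.77.

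The channel subunit gene Htr3a separated one class from the rest more than any other of the 9. Htr3a and Htr3b are neighbours on chromosome 9, 23908 bases apart (Htr3a chr9:48899213-48911099, Htr3b chr9:48935008-48964990, both minus strand). The 4 Vip mice had 198, 942, 1095 and 1167 CPM of Htr3a. In the Lamp5 mice it ran from 0 to 7.46 CPM with a median of 4.31, in the Pvalb mice from 0 to 2.97, and all 5 Rorb and all 3 Fezf2 mice were at 0. The lowest Vip mouse, of eHGT_019h, therefore stood above the highest mouse of every other class.

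The Vip mean of Htr3a was 850 ± 445 CPM (SD, n = 4) against 0.887 CPM for the mean of the others, a log2 difference of 8.92 (SE 0.36, limma adjusted p = 1.80e-31). Without any 1 mouse it lay between 8.66 and 9.55. The remaining 6 Htr3a calls were lower values in Pvalb, Sst, Rorb, Fezf2, Rorb and Fezf2, and neither, where the Vip class enters the mean of the others. With the Vip class left out, an alternative chosen after seeing the data, those calls ended in all 6, at −0.19, −0.49, −0.60, −0.55, 0.24 and −0.35 on the log2 scale, and the sign in Rorb and Fezf2 turned. The call in Rorb and Fezf2 also ended without the eHGT_058h mouse MouseID-463481 (−0.86), the eHGT_078h mice MouseID-453328 (−0.86) and MouseID-498749 (−0.86) or the hDLXI56i mouse MouseID-400157 (−0.99).

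Htr3a was not uniform within the Vip class. It reached 10 CPM in 38 of the 50 Vip cells, with a median of 498 and a maximum of 5980 CPM among those 38, and was at 0 in the other 12. Every Vip cell had Adarb2 and none had Lhx6. Calb2 was at 10 CPM in 18 of the 38 cells with Htr3a and in 7 of the 12 without, Cck in 20 of 38 and 5 of 12, and Htr2c in 23 of 38 and 7 of 12. Sncg, a marker of another interneuron type of the caudal ganglionic eminence, was in 9 of 38 and 0 of 12. Of all 87 cells with Htr3a, 38 were Vip, 14 Lamp5, 11 had both Slc17a7 and Gad1 or Gad2, 10 met none of the 4 GABAergic criteria, 9 were Pvalb, 2 were Rorb and Fezf2, and Sst, neither and the cells with both Pvalb and Sst gave 1 each. At 100 CPM or more there were 48 cells, all with Adarb2 and none with Lhx6.

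Htr3b, whose product forms a mixed channel with that of Htr3a, was at 10 CPM in 5 cells, all with Adarb2, and 4 of these also had Htr3a. Its highest class means were 0.981 ± 1.85 CPM in Lamp5 (SD, n = 7) and 0.489 ± 0.664 CPM in Vip (n = 4). None of the 50 Vip cells reached 10 CPM, which allows up to 6.0%, and none of 602 Pvalb cells did, which allows up to 0.498%. No class was called.

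Of the receptors that raise cyclic AMP, Htr4 was highest in the Vip class, with 3.30, 4.02, 11.5 and 36.6 CPM in its 4 mice. The eHGT_019h mouse that was high in Htr1f was also the high one here. Pvalb mice ran from 0 to 13.6 CPM with a median of 3.10 and overlapped with all but the top Vip mouse. The Vip mean was 13.8 ± 15.6 CPM (SD, n = 4) and the log2 difference 2.58 (SE 0.48, limma adjusted p = 2.39e-05), and it stayed between 2.0 and 2.98 without any 1 mouse. Htr4 was at 10 CPM in 16.0% of Vip, 14.1% of Pvalb and 8.77% of Fezf2 cells, and in none of 65 Rorb and Fezf2 cells, which allows up to 4.62%. In that class 4 mice were at 0 and the other at 0.0971 CPM, a log2 difference of −1.23 (SE 0.43, limma adjusted p = 0.0236). This call ended without the eHGT_058h mice MouseID-463481 (−1.24) or MouseID-497551 (−1.21) or the eHGT_078h mouse MouseID-498749 (−1.15). It also ended in mice with G after the first hyphen of the library name (−1.27) and with the class thresholds lowered (−0.91). The same held with at least 3 cells a mouse (−0.92) and without the Vip class (−0.88).

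Htr7, the other receptor that raises cyclic AMP, lies on chromosome 19 (chr19:35958734-36057507, minus strand) and had its highest means in Rorb and Fezf2, Sst and Vip cells. The Sst mice ran from 6.24 to 35.7 CPM (median 15), and the Rorb and Fezf2 mice had 3.50, 10.8, 19.8, 24.4 and 29.6 CPM. The 4 Vip mice ran from 0 to 25.8 CPM, with a mean of 14.4 ± 12.3 CPM (SD, n = 4) and a log2 difference of 0.31 (SE 0.56, limma adjusted p = 0.704), and 26.0% of Vip cells held Htr7. The 3 Fezf2 mice had 0, 1.19 and 1.82 CPM, below every Rorb, Sst, Rorb and Fezf2, and neither mouse. Sst cells were at 17.3 ± 9.60 CPM (SD, n = 12), a log2 difference of 1.34 (SE 0.36, limma adjusted p = 0.00214), and the call ended among mice of that letter, at 0.98. Fezf2 cells were at 1.0 ± 0.92 CPM (n = 3), a log2 difference of −2.27 (SE 0.63, limma adjusted p = 0.00816). Without the eHGT_078h mouse MouseID-453328 that difference was −1.76 and was not called (limma adjusted p = 0.184). All 3 Fezf2 mice carried eHGT_078h, so the Fezf2 class was not measured in mice of another enhancer. The same enhancer also gave 66 cells of the neither class.

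**Figure D2:**
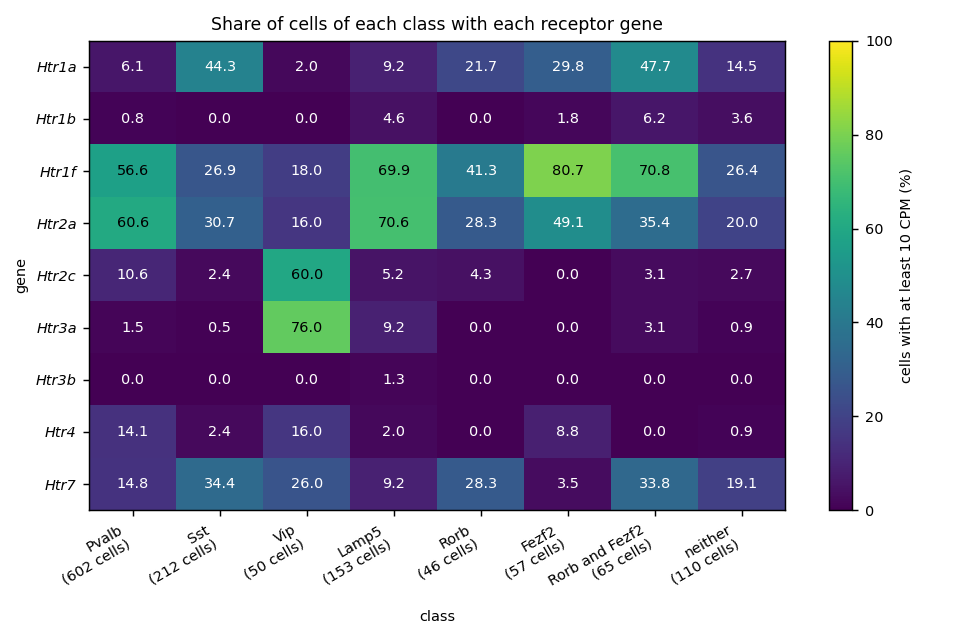
Share of the cells of each class (columns, with the number of cells) that held each receptor gene (rows) at 10 CPM or more, in percent. Htr1f and Htr2a were found in large shares of Lamp5, Pvalb and Fezf2 cells. The shares of Htr2c and Htr3a were 60.0% and 76.0% in Vip cells and at most 10.6% in the other classes shown. Cells outside these classes are not shown.

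To compare receptors with each other, levels were divided by exonic length. Htr1f had the highest CPM per kilobase of exon in 6 of the 8 classes, from 3.51 in neither to 29.4 in Lamp5. Htr1a led in Sst cells at 6.61, followed by Htr7 at 5.10, and Htr3a led in Vip cells at 408, followed by Htr1f at 12.1 and Htr2c at 7.59. Htr2a was the second in Pvalb at 4.51, after Htr1f at 12.4, and in Lamp5 at 12.1. Reads from introns, if counted, would raise the long genes in this measure, and their share is not given in the sources used here.

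Most cells held more than one receptor. At 10 CPM, 175 of 1483 cells (11.8%) held none of the 9 genes, 536 held 1, 512 held 2, 217 held 3, 37 held 4 and 6 held 5. The mean number per cell over mice was 2.37 ± 0.61 in Vip (SD, n = 4), 2.03 ± 0.24 in Rorb and Fezf2 (n = 5), 1.92 ± 0.34 in Lamp5 (n = 7), 1.81 ± 0.07 in Fezf2 (n = 3), 1.65 ± 0.25 in Pvalb (n = 21), 1.43 ± 0.33 in Rorb (n = 5), 1.34 ± 0.24 in Sst (n = 12) and 0.863 ± 0.268 in neither (n = 7). The neither class stood out by its cells with none of the 9 genes, 42 of 110 (38.2%), against 2 of 65 in Rorb and Fezf2. The other serotonin receptor genes are not part of this count. Median depth was 596406 reads per cell in the neither class, and the classes ran from 555118 in Sst to 600569 in Pvalb. The part of depth in these shares was not tested.

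**Figure D3:**
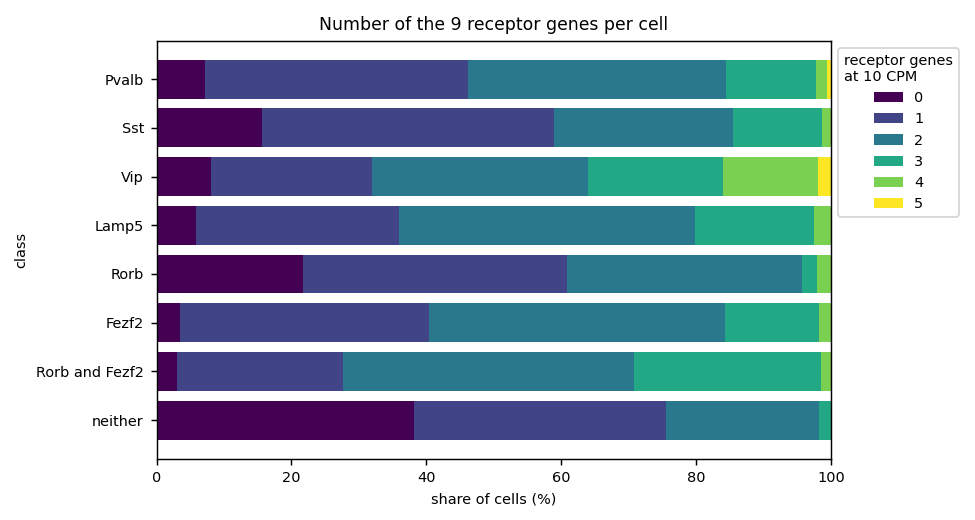
Share of the cells of each class (bars, percent of cells) that held 0 to 5 of the 9 receptor genes at 10 CPM or more. Cells without any were 38.2% of the neither class and 3.08% of the Rorb and Fezf2 class, and 3 or more receptors were found in 36.0% of Vip cells.

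Pairs of receptors in the same cell were described within classes, pooled over the cells of a class and without a test, since cells of a mouse share their source. In the Pvalb class 341 cells held Htr1f, 365 Htr2a and 186 both. Htr2a was found in 54.5% of the cells with Htr1f and in 68.6% of those without it. In the 20 mice that had Pvalb cells with and without Htr1f, Htr2a was less frequent in the cells with Htr1f in 15 and more frequent in 4. Htr2c was in 13.2% of Pvalb cells with Htr2a and 6.75% of those without, and in 5.87% of cells with Htr1f and 16.9% of those without. These pooled shares rest in part on 1 enhancer, since 31 of the 64 Pvalb cells with Htr2c came from eHGT_140h. Among the eHGT_140h Pvalb cells Htr2c was in 25% of those with Htr2a and 23.1% of those without, and in 11.4% of those with Htr1f and 31.3% of those without. Among the Pvalb cells of the other enhancers the shares were 9.39% and 3.54% for Htr2a, and 5.05% and 10.1% for Htr1f. Within mice, Htr2c was more frequent in the cells with Htr2a in 10 of 21 and less frequent in 5, and it was less frequent in the cells with Htr1f in 10 of 20 and more frequent in 5. In Lamp5 cells Htr2a was in 70.1% of the cells with Htr1f and 71.7% of those without, and in Sst cells Htr7 was in 35.1% of those with Htr1a and 33.9% of those without. In Vip cells 23 of the 30 cells with Htr2c also held Htr3a.

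The GABAergic cells were also split by the origin markers Lhx6, a gene of the medial ganglionic eminence, and Adarb2, a gene of the caudal one. There were 895 cells with Lhx6 alone and 212 with Adarb2 alone at 10 CPM. Against 12.0% of 18856 genes, 3 of the 9 receptors were called by limma: Htr3a and Htr2c higher and Htr1a lower in Adarb2 cells. Htr3a was at 293 ± 374 CPM in Adarb2 cells (SD, n = 10 mice) and 0.348 ± 0.618 CPM in Lhx6 cells (n = 25), a log2 difference of 5.34 (SE 0.70, limma adjusted p = 1.09e-07). Htr2c was at 22.7 ± 18.1 and 4.04 ± 4.86 CPM, a log2 difference of 2.16 (SE 0.50, limma adjusted p = 0.000642), and Htr1a at 2.84 ± 2.90 and 12.7 ± 13.8 CPM, a log2 difference of −1.68 (SE 0.43, limma adjusted p = 0.00175).

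A direct view came from the 7 mice that gave at least 5 cells on both sides. In the 3 eHGT_017h mice Htr3a was 632, 684 and 1037 CPM in Adarb2 cells and 0 in Lhx6 cells, and Htr1a was 0, 0.131 and 1.24 CPM in Adarb2 cells and 47.1, 47.5 and 45.1 CPM in the Lhx6 cells of the same mice. The 3 hDLXI56i mice had 3.88, 17.6 and 380 CPM of Htr3a in Adarb2 cells and 0, 2.43 and 0 in Lhx6 cells. The eHGT_058h mouse went the other way, with 0 CPM in 6 Adarb2 cells and 0.947 in 7 Lhx6 cells, so Htr3a was higher in Adarb2 cells in 6 of 7 mice. Htr2c was higher in 6 of 7 and at 0 on both sides in the other, and Htr1a was lower in 6 of 7. Htr1f was not called, and within mice it was 50.9 to 104 CPM in the Adarb2 cells of the hDLXI56i and eHGT_058h mice but 0, 0.39 and 6.81 CPM in those of the eHGT_017h mice.

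**Figure D4:**
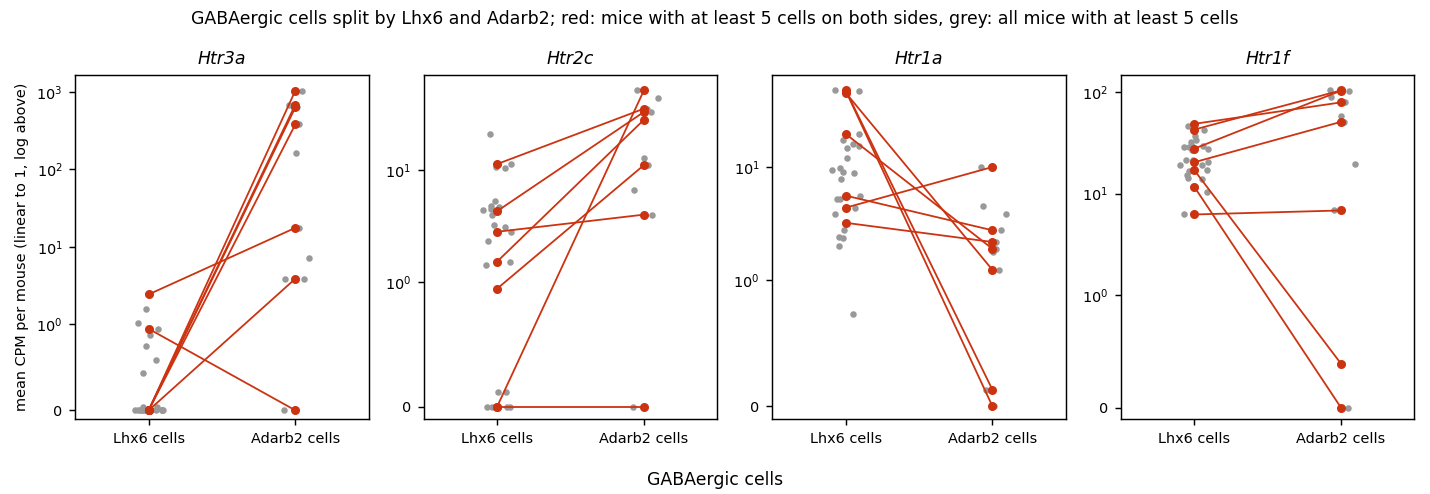
Mean CPM per mouse of Htr3a, Htr2c, Htr1a and Htr1f in GABAergic cells with Lhx6 and with Adarb2; the y axis is linear up to 1 CPM and logarithmic above, red lines join the 2 values of a mouse with at least 5 cells on both sides and grey points are all mice with at least 5 cells. Htr3a rises from Lhx6 to Adarb2 cells in 6 of 7 joined mice and Htr1a falls in 6 of 7, while the lines of Htr1f go both ways.

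The Adarb2 cells differed between these enhancers in class. eHGT_017h gave 26 Vip and 3 Lamp5 cells, and hDLXI56i gave 8 Vip and 53 Lamp5 cells. Htr1f was at 75.9 ± 32.3 CPM in Lamp5 (SD, n = 7) and 31.3 ± 47.7 CPM in Vip cells (n = 4), and the part of the make-up in the difference between enhancers was not tested.

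Glutamatergic cells were set against GABAergic cells over all enhancers. Against 17.1% of 19655 genes, 3 of the 9 receptors were called, all lower in glutamatergic cells. Htr2c was at 0.636 ± 0.940 CPM in glutamatergic (SD, n = 9 mice) and 7.89 ± 9.69 CPM in GABAergic cells (n = 30), a log2 difference of −1.73 (SE 0.54, limma adjusted p = 0.00696). Htr4 was at 0.506 ± 0.469 and 3.14 ± 2.75 CPM, a log2 difference of −1.18 (SE 0.34, limma adjusted p = 0.00358). Htr3a was at 0.303 ± 0.729 and 44.1 ± 89.9 CPM, a log2 difference of −2.31 (SE 0.96, limma adjusted p = 0.0449), and 19 of the 33 fits that left out 1 mouse ended that call, with differences of −2.59 to −2.12.

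In the 6 mice that gave at least 5 cells of both kinds, all of eHGT_023h or eHGT_058h, these differences were not seen in every gene. Htr2c was at 0 in the GABAergic cells of all 6 mice and at 0, 0, 0, 1.64, 1.72 and 2.25 CPM in their glutamatergic cells. Htr4 was lower in the glutamatergic cells of the 3 eHGT_023h mice, at 0.655, 0 and 1.12 against 2.74, 3.99 and 5.55 CPM. It was at 0 in both kinds in 2 of the 3 eHGT_058h mice. In the other, MouseID-497551, Htr4 was 0.901 CPM in glutamatergic and 0 in GABAergic cells. Htr3a was higher in the glutamatergic cells of 2 of the 6 mice and lower in those of 2. The test between kinds thus rested largely on mice that gave 1 kind of cell, where kind and enhancer cannot be told apart.

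Across enhancers, with all cells of a mouse averaged, 16 of the 99 pairs of receptor and enhancer were called by limma over 18932 genes, 5 higher and 11 lower than the mean of the other 10 enhancers. Of all pairs of gene and enhancer, 5.6% were called. Per enhancer, the receptors called against the percentage of all genes called were 4 for eHGT_017h (5.19%), 3 for eHGT_019h (9.62%), 1 for eHGT_023h (0.65%), 2 for eHGT_058h (12.5%), 1 for eHGT_064h (2.51%), 3 for eHGT_078h (14.4%) and 2 for eHGT_140h (5.4%). None was called for eHGT_079h (1.86%), eHGT_082h (1.67%), eHGT_128h (4.74%) or hDLXI56i (3.11%), with 2, 2, 1 and 2 of the 9 at an unadjusted p below 0.05.

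The eHGT_017h cells were higher in Htr3a, Htr1a and Htr2c and lower in Htr1f. Htr3a was 105, 303 and 357 CPM in its 3 mice, and Htr1a 19.5, 34.6 and 34.7 CPM. Every eHGT_017h mouse lay above all other mice in Htr1a, of which the highest had 16.5 CPM, while in Htr3a an eHGT_019h mouse at 116 and a hDLXI56i mouse at 244 CPM overlapped with them. The log2 differences were 5.67 for Htr3a (SE 0.95, limma adjusted p = 0.000244) and 2.06 for Htr1a (SE 0.34, limma adjusted p = 0.000102). Htr1f was 8.37, 8.68 and 16.5 CPM, a log2 difference of −1.41 (SE 0.27, limma adjusted p = 0.000726). Htr2c was 7.43, 12.8 and 27.0 CPM, a log2 difference of 1.77 (SE 0.55, limma adjusted p = 0.0306). It was not called without the mice MouseID-406074 (1.82) or MouseID-410195 (1.31). Nor was it called with the letter after the first hyphen of the library name in the fit (1.67).

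Of the 118 eHGT_017h cells 58 were Sst and 26 Vip, the classes highest in Htr1a and in Htr3a and Htr2c. The part of this make-up in the enhancer's values was not tested. Within the Sst class Htr1a was 49.3, 50.4 and 50.9 CPM in the eHGT_017h mice, above the 9 other Sst mice, of which the highest had 36.5 CPM.

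The eHGT_019h mice had the highest mean of Htr2a, at 43.9, 52.9 and 69.2 CPM, above every mouse of the other enhancers, the highest of which had 39.8. The log2 difference was 1.36 (SE 0.25, limma adjusted p = 0.00012). Htr1a was 1.27, 3.69 and 3.70 CPM, a log2 difference of −1.25 (SE 0.34, limma adjusted p = 0.00619), not called without mouse MouseID-401668 (−0.90). Htr2c was 6.28, 12.9 and 43.1 CPM, a log2 difference of 1.93 (SE 0.55, limma adjusted p = 0.0096), not called without mouse MouseID-400156 (1.22). Lamp5 cells, the class highest in Htr2a, were 82 of the 128 eHGT_019h cells.

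Htr2c, Htr3a and Htr4 accounted for 7 of the 11 lower calls. The enhancers eHGT_058h, eHGT_064h, eHGT_078h, eHGT_128h and eHGT_140h gave no Vip cell and eHGT_023h gave 1. No receptor was called for eHGT_128h, and eHGT_140h had Htr2c at 11.3 ± 7.43 CPM (SD, n = 3). The part of the Vip cells in the lower values was not tested. Htr2c was 0.0345, 0.0375 and 0.039 CPM in the eHGT_078h mice and 0, 0 and 0.916 CPM in the eHGT_023h mice, with log2 differences of −2.45 (SE 0.55, limma adjusted p = 0.000794) and −2.17 (SE 0.55, limma adjusted p = 0.0462). In eHGT_058h it was 0, 1.32 and 1.86 CPM, a log2 difference of −1.51 (SE 0.55, limma adjusted p = 0.0344). The eHGT_023h call ended in 20 of the 33 fits without 1 mouse (−2.48 to −2.01) and the eHGT_058h call without mouse MouseID-458159 (−1.05) or MouseID-497551 (−1.66). The library names of all 138 eHGT_023h cells have the letter J after the first hyphen. With this letter in the fit the Htr2c difference of eHGT_023h was −1.88 (limma adjusted p = 0.492).

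Htr3a was 0 in all 3 eHGT_078h mice and 0, 0, 0 and 0.521 CPM in the eHGT_064h mice, with log2 differences of −2.93 (SE 0.95, limma adjusted p = 0.0193) and −2.77 (SE 0.84, limma adjusted p = 0.0415). Leaving out any 1 of its own 3 mice ended the eHGT_078h call (−2.93 each time). The eHGT_064h call ended in 8 of the 33 fits without 1 mouse, among them those without each of its own 4, at −2.92 to −2.58 over all fits. Htr4 was 0, 0 and 0.725 CPM in eHGT_058h (log2 −1.57, SE 0.43, limma adjusted p = 0.00503) and 0.117, 0.872 and 0.95 CPM in eHGT_078h (log2 −1.11, SE 0.43, limma adjusted p = 0.0458). The eHGT_078h call of Htr4 ended in 16 of the 33 fits without 1 mouse, at −1.25 to −0.85 over all fits.

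eHGT_140h, of whose 137 cells 127 were Pvalb, had Htr1a at 1.96, 1.97 and 2.18 CPM. The log2 difference was −1.56 (SE 0.34, limma adjusted p = 0.00215). Htr7 was 1.91, 2.50 and 7.70 CPM, a log2 difference of −1.31 (SE 0.33, limma adjusted p = 0.00824), not called without mouse MouseID-460763 (−1.14) or MouseID-505190 (−1.0). With voom on recovered reads, chosen after seeing the data, 12 pairs were called, 11 higher and 1 lower, and 6 of the 16 calls remained: the 4 of eHGT_017h and those of Htr2a and Htr2c in eHGT_019h.

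**Figure D5:**
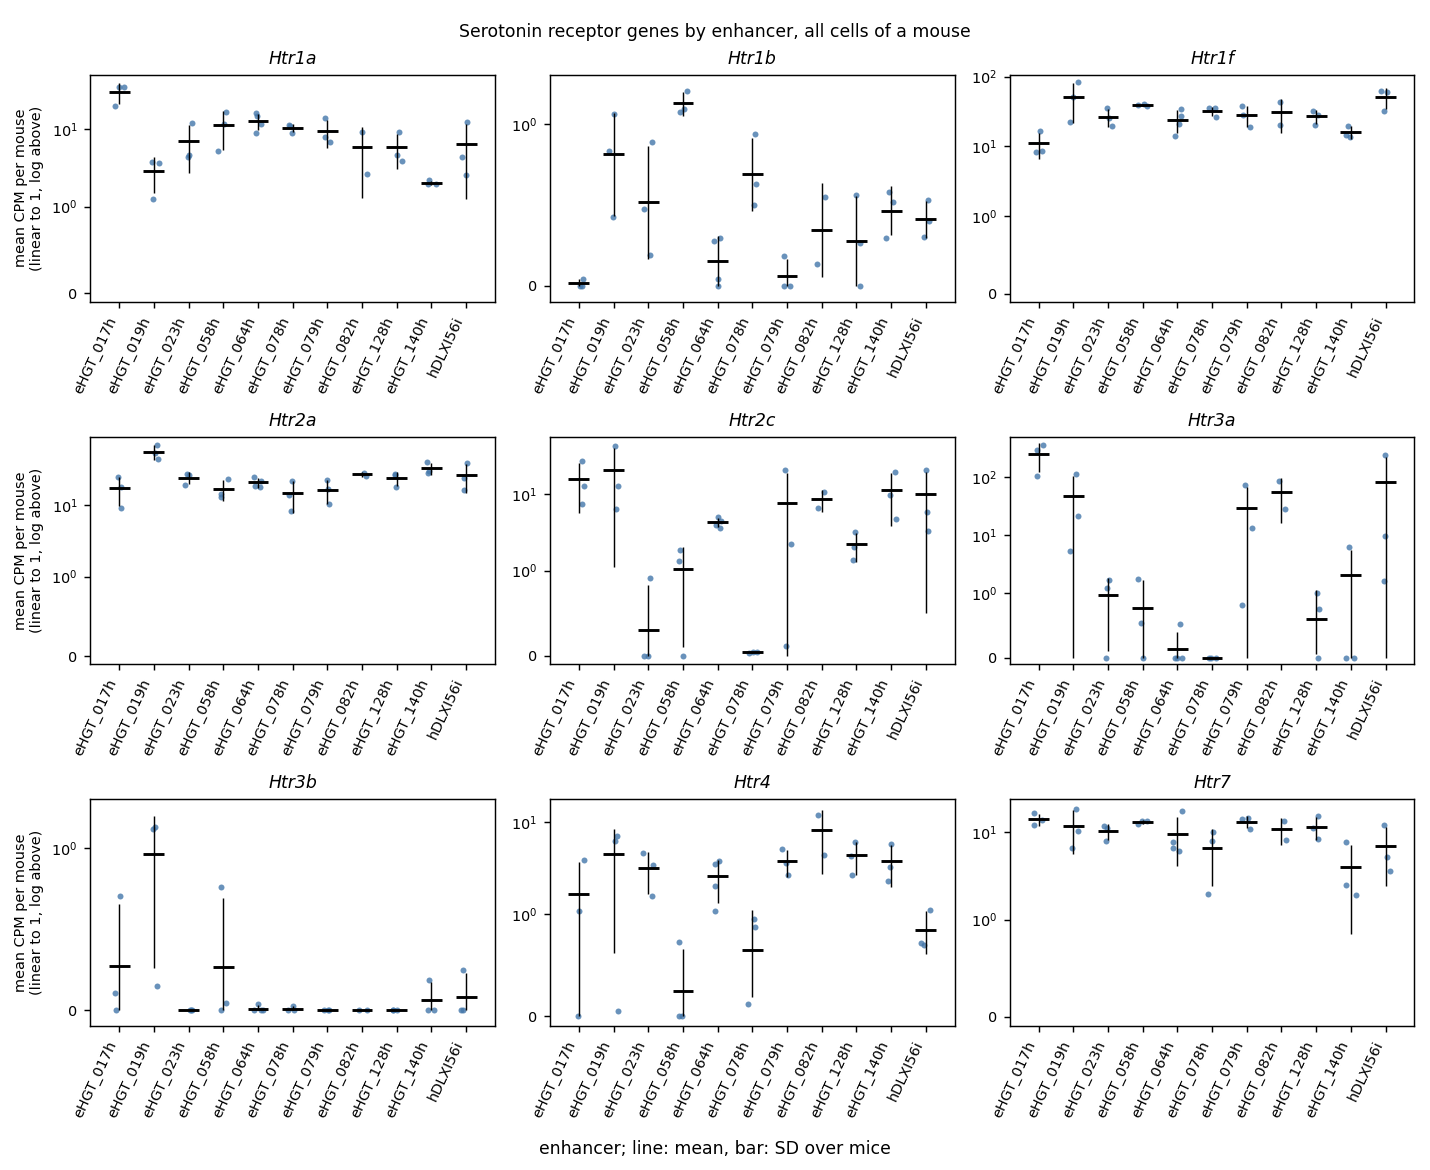
Mean CPM of the 9 serotonin receptor genes over all cells of each mouse (points) by enhancer; the y axis is linear up to 1 CPM and logarithmic above, lines are means over mice and bars SD, ending at 0 where the SD exceeds the mean. The 3 eHGT_017h mice lie above all others in Htr1a, at 19.5 to 34.7 CPM, and the 3 eHGT_019h mice in Htr2a, at 43.9 to 69.2 CPM.

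Within a class the enhancers were compared by an omnibus F test in limma. In Pvalb cells, over 7 enhancers and 20 mice, 0 of the 7 receptors tested were called at an adjusted p below 0.05, against 1.22% of 16424 genes, and 5 had an unadjusted p below 0.05. The lowest adjusted p was 0.205, for Htr2c, which ran from 0 in both eHGT_023h mice to 11.8 ± 7.91 CPM in eHGT_140h (SD, n = 3) and 11.3 ± 16.5 in hDLXI56i (n = 3). Htr1f in Pvalb cells was 48.1 ± 9.96 CPM in hDLXI56i and 16.4 ± 4.10 in eHGT_140h (limma adjusted p = 0.309). With at least 10 cells a mouse, or without the hDLXI56i mouse MouseID-400157, 2 receptors were called in Pvalb cells.

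In Sst cells, over 4 enhancers and 11 mice, 0 of 6 receptors tested were called, against 0.191% of 16193 genes, and 2 had an unadjusted p below 0.05. These were Htr2a, at 23.7 ± 6.49 CPM in eHGT_017h (SD, n = 3), 15.4 ± 6.77 in eHGT_064h (n = 4), 10.1 ± 8.51 in hDLXI56i (n = 2) and 3.22 ± 4.0 in eHGT_023h (n = 2), and Htr1a, at 50.2 ± 0.81, 25.7 ± 5.07, 22.2 ± 7.67 and 10.6 ± 14.4 CPM in the same order. Their limma adjusted p was 0.24 and 0.247. By voom on recovered reads 0 were called in either class.

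The other 5 serotonin receptors were described in the same classes. Of their 40 pairs with the 8 classes, limma called 5 higher and 1 lower, beside 11.3% of all pairs of gene and class, and the median log2 difference of the 5 genes was −0.63 in Pvalb and 0.66 in Rorb cells. Htr1d, an inhibitory receptor close to Htr1b, was higher in Pvalb cells at 7.25 ± 5.23 CPM (SD, n = 21), a log2 difference of 2.66 (limma adjusted p = 2.72e-16). In Sst cells it was 2.55 ± 5.24 CPM (n = 12), with a highest mouse of 17.7 CPM, and was not called. It was 0 in every Vip, Lamp5, Rorb, Fezf2 and neither mouse. Htr5b was higher in Rorb cells, at 10.9 ± 12.8 CPM (n = 5) and a log2 difference of 1.81, and in Rorb and Fezf2 cells, by 1.46 on the log2 scale. Htr5a was higher in Rorb and Fezf2 cells, at 21.1 ± 9.68 CPM (n = 5) and a log2 difference of 1.40. Htr6 was higher in neither cells (1.28) and lower in Lamp5 cells (−1.10), and Htr2b was not called in any class.

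Of the 7 genes for making, moving and breaking down serotonin, 6 were tested, and of their 48 pairs with classes 4 were higher and 5 lower, beside 11.3% of all pairs. All 9 calls belonged to Tph2, the neuronal tryptophan hydroxylase, and Maob, a monoamine oxidase. Tph2 transcripts were 41.5 ± 31.5 CPM in Fezf2 cells (SD, n = 3; log2 difference 2.75, limma adjusted p = 0.00295) and 21.4 ± 14.0 CPM in Rorb cells (n = 5; 1.79), against 1.39 ± 1.3 CPM in Pvalb cells (n = 21; −1.86). Maob was 17.1 ± 8.47 CPM in Fezf2 cells (n = 3; log2 difference 2.55) and 10.3 ± 6.54 in Lamp5 cells (n = 7; 1.55), and lower in Sst (−1.88), Rorb (−1.75) and Pvalb cells (−1.15). Slc6a4, the serotonin transporter, was the gene below the filter on low values.

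All 18 transducers and partners were tested, and of 144 pairs with classes 16 were higher and 11 lower, beside 11.3% of all pairs. S100a10, known to bind Htr1b and Htr4 proteins, was 303 ± 66.5 CPM in Rorb and Fezf2 cells (SD, n = 5; log2 difference 4.83, limma adjusted p = 1.16e-11) and 229 ± 98.3 CPM in Rorb cells (n = 5; 4.24), but 0.0719 ± 0.188 CPM in Pvalb (n = 21; −4.46) and 1.75 ± 3.79 in Lamp5 cells (n = 7; −3.67). Adcy2, an adenylyl cyclase, was 407 ± 112 CPM in Sst (n = 12; 2.40) and 361 ± 95.6 in Vip cells (n = 4; 2.17), and 6.92 ± 8.75 CPM in Lamp5 cells (n = 7; −4.92). Mpdz, a scaffold protein known to bind Htr2c protein, was highest in Lamp5 cells at 167 ± 26.8 CPM (n = 7; 2.57), where Htr2c itself was 3.14 ± 3.16 CPM. Plcb4, a phospholipase C, was lower in Rorb and Fezf2 cells at 11.6 ± 6.28 CPM (n = 5; −2.43).

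Genes whose pattern was most like that of a receptor were named by the Pearson correlation of log2(mean CPM + 1) over the 64 values of a mouse and class. The values share mice, classes and libraries, so the correlations describe these samples and have no p. Htr3a was most like Sall1 (r = 0.95), Vip (0.92), a gene of the class rule, and Tac2 (0.91). Htr3b went with Plac8 (0.84) and Htr2c with Shisa8 (0.73). Htr3b was above 0 in only 17 of the 1483 cells, so its correlation rests on few values. For the others the nearest genes were Gabrb2 for Htr2a (0.70), Mfsd4 for Htr1f (0.68), Lama4 for Htr1a (0.67), Gabra5 for Htr1b (0.64), Atf3 for Htr4 (0.63) and Vgf for Htr7 (0.60), both known as genes induced by activity or injury.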

How the data were processed

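The values of the deposited table are CPM, scaled by the authors to a total of 1000000 in every cell. STAR and mm10 appear in the submitters' processing notes with neither version nor role. The sources used here do not give the counting program, strand setting or cell filters. All cells and gene columns were used, and no doublet caller was run. Samples were grouped by the genotype label and the mouse. The members, classes, gene lists and tests were chosen with earlier results of these data known.

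CPM was averaged over the cells of a mouse (or mouse and class, with at least 5 cells). Genes that reached 1 CPM in 2 or more values were tested with limma 3.58.1 (R 4.3.3; trend and robust) on log2(CPM + 1), with Benjamini-Hochberg adjustment. The named genes were all 9 receptors, the 5 other receptors, at most 4 called genes of largest log2 difference from each of 2 lists of related genes, and the genes of highest correlation. Mouse blocks used duplicateCorrelation, with correlations of 0.072 between classes, 0.060 between kinds and 0.121 between origins; the mouse number pairs values because they come from the same animal. The fits were tested on simulated data. Whole reads were recovered from the CPM (100% of values within 0.01 read). Intervals for counts of 0 use 3 counts over the pooled cells of a class and cover counting error only. They take cells as independent, although cells of a mouse share their source. Reads carry no molecular identifiers. Positions are from GRCm38. The summed level of 1 marker list is not reported here.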

Additional observations from a re-analysis of the deposited data

Results flagged for a closer look

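In 18 of 50 tested groups of 4 to 10 mice the highest mouse lay far from the others; chance flags about 1 in 20, but genes near 0 with a single mouse above it are flagged readily, so the number is no measure of quality. Among genes at higher levels, Htr1f was 102 CPM in the Vip cells of the eHGT_019h mouse MouseID-401668, Htr2a was 48.0 CPM in the Rorb cells of the eHGT_023h mouse MouseID-497548 and 52.6 CPM in the Rorb and Fezf2 cells of the eHGT_078h mouse MouseID-498749, Htr1a was 27.7 CPM in the Rorb and Fezf2 cells of the eHGT_058h mouse MouseID-463481, and Htr7 was 17.7 CPM over all cells of the eHGT_064h mouse MouseID-468100. The 6 Lamp5 cells of the eHGT_058h mouse MouseID-458159 were apart in Htr1a at 10.01 CPM, Htr1b at 4.92 CPM and Htr3b at 4.93 CPM.

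The other values were low. In neither cells Htr2c was 1.72 CPM in the eHGT_023h mouse MouseID-497548, and Htr3a was 1.63 and Htr4 3.16 CPM in the eHGT_058h mouse MouseID-497551. Htr1a was 1.39 CPM in Vip cells of mouse MouseID-406074, Htr4 was 5.66 CPM in Lamp5 cells of mouse MouseID-400156, 1.27 CPM in Rorb cells of mouse MouseID-498749 and 0.0971 CPM in Rorb and Fezf2 cells of mouse MouseID-497551, and Htr3b was 0.143 CPM in Rorb cells of mouse MouseID-463481. Over all eHGT_064h cells Htr3a was 0.521 CPM in mouse MouseID-498750 and Htr3b 0.0384 CPM in mouse MouseID-497550.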

How the results depend on the processing

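With a pseudocount of 10 the calls fell from 16 to 3 by enhancer (all higher), from 23 to 8 by class (5 higher, 3 lower) and from 3 to 0 between kinds; with 0.1, 6 instead of 3 receptors were called between origins. Mice of prefix letter G alone gave 9 enhancer calls. At least 10 cells a mouse gave 14 class calls (of 40 pairs, as fewer classes could be fitted) and 2 receptors in Pvalb cells, and omitting the Vip class gave 14, where Htr3a in Rorb and Fezf2 cells turned to 0.24. By voom on recovered reads, added after seeing the data, 5 were called between origins. Leaving out 1 mouse gave 13 to 20 calls by enhancer, 20 to 26 by class, 2 to 3 by kind, 3 to 4 by origin, 0 to 2 in Pvalb cells (2 without the hDLXI56i mouse MouseID-400157) and 0 in Sst cells. Of the calls by class 18 of 23 stayed called in every fit without 1 mouse, and of those by enhancer 7 of 16. The block fit of class gave 23 calls and the fit without a replicate block 24; removing the block ended no call between classes, kinds or origins. Of 72 shares of cells at 10 CPM, 5 moved by more than their interval after thinning to 100000 reads. With the threshold at 1 CPM 23 of the 72 moved, and at 50 CPM 29 did. The negative binomial count test planned on recovered reads was not run.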

Other observations

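Cells outside the 8 classes were read separately and enter no comparison. The 82 cells that met both the Pvalb and the Sst criterion held Htr7 at 10 CPM in 54.9%, Htr1f in 58.5%, Htr1a in 46.3% and Htr2a in 24.4%, with means of 29.8 CPM for Htr7 and 23.1 CPM for Htr1a over cells, and none held Htr2c. The 26 GABAergic cells that met none of the criteria held Htr3a in 10 cells and Htr3b in 3. All 10 of those with Htr3a, and all 3 with Htr3b, were among the 14 such cells with Adarb2 and without Lhx6, and 6 of these 14 held Htr7.

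The 79 cells with Slc17a7 together with Gad1 or Gad2, of which 27 came from eHGT_019h and 12 from eHGT_064h, held Htr1f in 40 cells, Htr2a in 35, Htr2c in 15 and Htr3a in 11. Of the 11 with Htr3a, 7 came from eHGT_019h, 3 from eHGT_017h and 1 from hDLXI56i.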
